A study of Mus musculus with 16 samples.

Results

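The genes described here are 41 interferon-stimulated antiviral genes, taken by name from a table of 56268 genes measured by RNA sequencing of mouse colonic epithelial cells. They were grouped by role into IFIT genes, OAS genes, RNA sensors, restriction factors, the ISG15 and ADP-ribosylation system, TRIM30 and Schlafen genes, and other induced proteins. The 16 libraries were of 4 groups with 4 libraries each, and all mice carried Villin-Cre, a Cre recombinase transgene driven by a promoter active in intestinal epithelium. WT mice carried Villin-Cre alone and cKO mice also carried floxed Rictor (labelled Rictor Flox), the gene for the defining subunit of mTOR complex 2. The groups WT and cKO received no treatment, and the groups WT_DSS and cKO_DSS received 3% dextran sulfate sodium (DSS), a sulfated polysaccharide that injures the colonic epithelium when given in drinking water. The labels give neither the age of the mice nor the days of treatment, and nothing in them states that each library is a different animal. The p-values therefore speak of the spread among these libraries, part of which may be technical. The design allows the question of whether these genes differed with DSS in each genotype, between genotypes in each treatment, and whether the difference with DSS depended on genotype.

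Interferons are secreted signalling proteins that cells release on sensing viral or other nucleic acids. Type I interferons (Ifna genes and Ifnb1) and type III interferons (Ifnl genes) bind separate receptors, and both activate JAK family kinases and, through them, transcription factors that bind interferon-stimulated response elements in promoters. These factors turn on genes whose products block viral entry, translation, replication or release, while interferon gamma acts mainly at gamma-activated sites. In the gut, epithelial cells are known as a main responder to type III interferon.

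Each library held 13911823 to 16414914 reads recovered from the deposited FPKM values (fragments scaled to gene length and sequencing depth). Between 19969 and 22738 genes were detected in a library. Mitochondrial genes took 7.66 to 15.1% of the reads of an untreated library and 4.74 to 7.34% with DSS. Rictor, the targeted gene, was at 2.80 ± 0.442 FPKM in WT and 2.47 ± 0.238 in cKO (SD, n = 4), and at 3.63 ± 0.572 in WT_DSS and 2.51 ± 0.464 in cKO_DSS. Its range in cKO overlapped that in WT, and neither genotype difference passed limma's test (adjusted p = 0.582 without treatment and 0.0761 after DSS), so the gene-level value does not by itself separate the labels. 9 epithelial markers summed to 6936 to 10260 FPKM per library, against 5.01 to 10.9 FPKM for 4 markers of all leukocytes, so the cells matched the epithelial label. 7 macrophage markers summed to 2.03 to 4.31 FPKM in untreated libraries and 5.52 to 10.2 with DSS, and 6 fibroblast markers to 2.14 to 4.04 and 5.51 to 9.91. 0 reads of the Y-linked genes were found in WT 3, cKO 3 and cKO 4, 635 to 1856 in the other untreated libraries and 2681 to 4533 with DSS, while Xist, expressed from the inactive X, had 10022 to 25600 reads in every untreated library and 0 to 7 with DSS except 5275 in WT_DSS 2. WT 1, WT 2, WT 4, cKO 1, cKO 2 and WT_DSS 2 held both Y-linked reads and 5275 or more Xist reads. The sex makeup therefore differed among the libraries within WT, cKO and WT_DSS. In the DSS comparisons the treatment and the sex makeup of the libraries thus moved together, and they cannot be told apart. On principal components of all genes tested, cKO_DSS 3 and 4 stood apart from the other libraries on the second.

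DSS went with higher levels of nearly the whole set in WT cells. On the log2(FPKM + 1) scale, in a limma fit to the 13255 genes that reached 1 FPKM in 4 or more libraries, 40 of the 41 genes could be tested. Slfn8 was not, with at most 0.0859 FPKM in any library. In WT_DSS against WT, 36 of the 40 rose and 1 fell at a Benjamini-Hochberg adjusted p under 0.05, where 15% of all genes tested were called higher and 13.5% lower, and the median difference over the 40 was 1.19 against -0.01 over all genes. In 36 of the 40, all 4 WT_DSS libraries lay above all 4 WT libraries, as did 15.5% of all genes. In cKO_DSS against cKO, 34 of the 40 rose and 0 fell (background 8.07% and 6.64%), the median difference was 1.0, and 32 of the 40 did not overlap between the groups (10.1% of all genes). Since the libraries are bulk RNA, a change in the RNA per cell and a change in the share of cells of a type cannot be told apart.

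**Figure D1:**
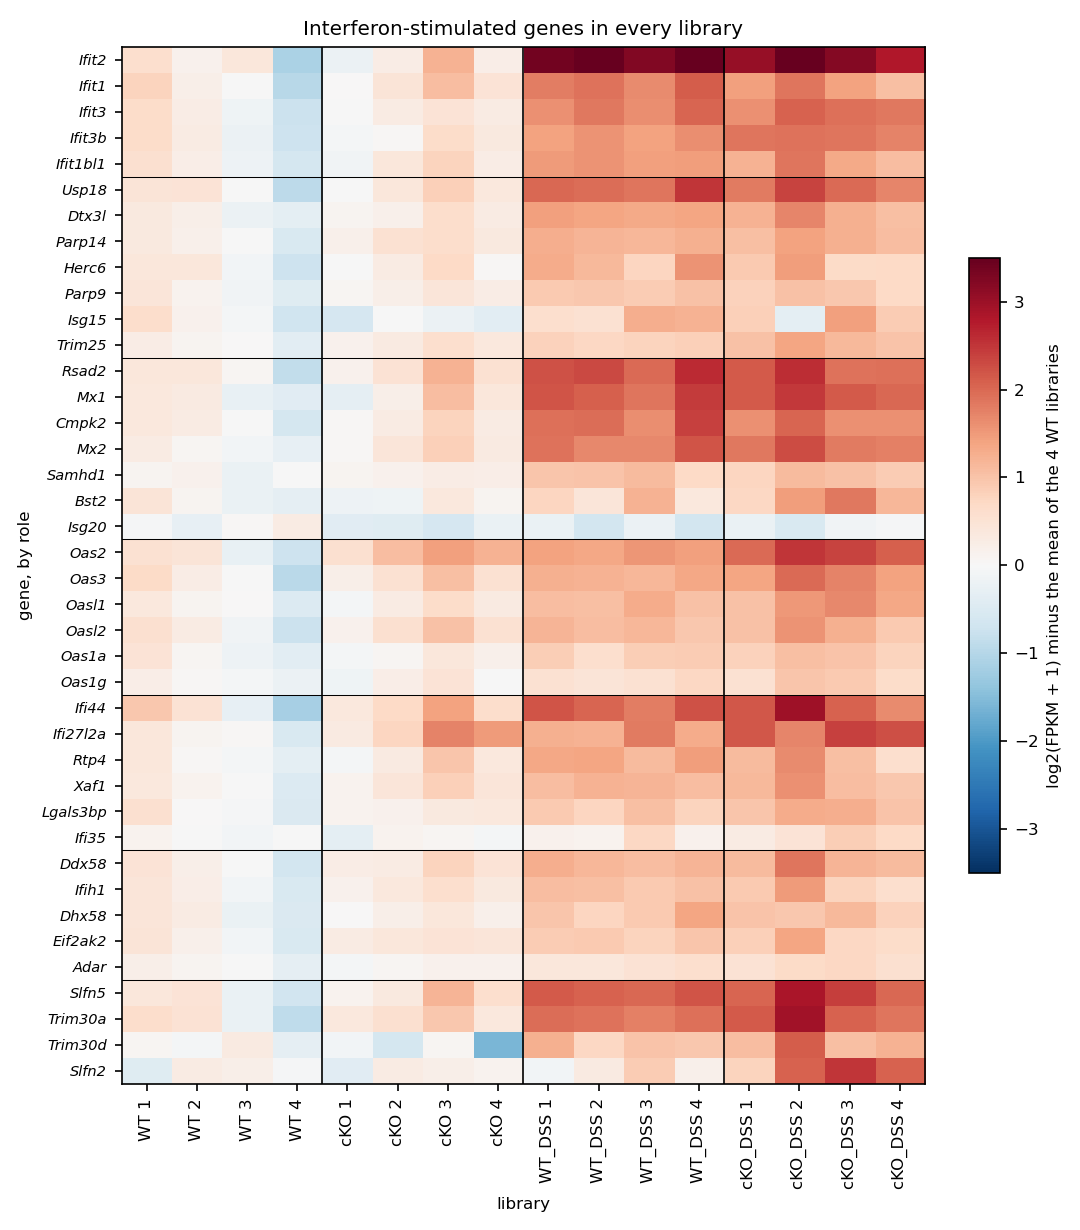
Each row is 1 of the 40 tested genes, grouped by role, and each column 1 library. Colour gives log2(FPKM + 1) minus the mean of the 4 WT libraries, red for higher and blue for lower. Most rows are red in all 8 DSS libraries, Isg20 is blue in most of them, and WT 4 is the bluest library in most rows.

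Other measures moved with DSS as well, among them the mitochondrial share given above. Their part in these differences was not tested beyond the fits given here. With the Y-linked level added to the model as a covariate, 32 of the 40 genes were called in WT and 16 in cKO, while the calls over all genes fell to 863 and 299. The median differences of the 40 genes in that fit were 1.24 and 1.02. The correlation of a library's expression with GC content also differed, at 0.19 to 0.50 in WT and -0.48 to 0.02 in WT_DSS. After a correction for GC content, 37 genes were called in WT and 38 in cKO, 35 and 34 of them shared with the uncorrected fit. Over all genes 20% and 19.5% were called, against 28.5% and 14.7% without the correction.

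The IFIT genes lie side by side on chromosome 19 and encode proteins that bind viral RNA lacking the host's cap methylation, alone or in complexes. All 5 rose with DSS in both genotypes. Ifit2 (ENSMUSG00000045932, chr19:34550694-34576419, plus strand) had the largest difference of the set. It was at 13.4, 9.65, 11.6 and 3.48 FPKM in the WT libraries in the order of their numbers and at 99.3, 113, 90.1 and 111 in WT_DSS, and at 7.30, 10.5, 21.3 and 10.3 in cKO and 78.4, 123, 88.0 and 65.8 in cKO_DSS. Every DSS library lay far above every untreated one. The mean was 10.8-fold higher with DSS in WT (log2 difference 3.43, SE 0.33, adjusted p = 2.5e-05 in limma) and 7.18-fold higher in cKO (log2 difference 2.81, adjusted p = 0.000178).

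Ifit3 (ENSMUSG00000074896, chr19:34583531-34588731, plus strand), which joins other IFIT proteins in RNA-binding complexes, was at 20.2, 15.3, 11.2 and 7.02 FPKM in WT and 40.1, 48.0, 41.0 and 55.1 in WT_DSS, and at 12.5, 15.6, 17.9 and 15.4 in cKO and 39.97, 55.2, 50.9 and 47.3 in cKO_DSS. The groups did not overlap with treatment, and the log2 differences were 1.78 (SE 0.22, adjusted p = 0.000201) in WT and 1.60 (adjusted p = 0.000457) in cKO, both by limma. Ifit3 and its near copy Ifit3b shared 51.2% and 44.5% of their 50-base windows, so reads may be split between them. Ifit3b rose from 3.53 ± 1.78 to 11.2 ± 0.94 FPKM in WT (SD, n = 4). Ifit1bl1, an Ifit1-like gene (ENSMUSG00000079339, chr19:34592891-34601956, minus strand), was the most highly expressed of the set per length. It was at 222, 179.5, 134 and 98.4 FPKM in WT and 428, 451, 413 and 422 in WT_DSS, then at 138, 199, 260.2 and 182 in cKO and 353, 561, 379.6 and 319 in cKO_DSS. The 4 WT_DSS values were close together, while cKO_DSS 2 lay well above the other cKO_DSS libraries, and the log2 differences with DSS were 1.49 and 1.05 (limma adjusted p = 0.00101 and 0.00896). Ifit1, which binds RNA with an incompletely methylated cap, went from 38.2 ± 17.9 to 131 ± 18.04 FPKM in WT and from 51.8 ± 16.7 to 98.5 ± 23.8 in cKO. Its call in cKO (adjusted p = 0.0482 by limma) was close to the threshold and was lost in 18 of 30 alternative fits.

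The OAS genes on chromosome 5 encode sensors of double-stranded RNA, of which the catalytic members make a second messenger that activates RNase L. All 6 rose with DSS in WT and 5 of 6 in cKO, where Oasl2 had a log2 difference of 0.61 (adjusted p = 0.101 by limma). Oas2 (ENSMUSG00000032690, chr5:120730333-120749853, minus strand) was at 21.1, 20.2, 11.9 and 8.30 FPKM in WT, 21.7, 31.4, 41.0 and 34.5 in cKO, 39.8, 38.6, 43.6 and 40.6 in WT_DSS and 59.7, 86.9, 78.6 and 64.1 in cKO_DSS. Treated libraries lay above untreated ones of the same genotype without overlap, and in each treatment every cKO library lay above every WT library. The log2 differences with DSS were 1.43 (SE 0.24, adjusted p = 0.0015) in WT and 1.16 (adjusted p = 0.00552) in cKO by limma.

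Oasl1 (ENSMUSG00000041827, chr5:114923240-114937915, plus strand), an OAS-like protein without the synthetase activity, was at 33.1, 26.9, 25.8 and 17.8 FPKM in WT and 55.0, 53.5, 64.2 and 52.2 in WT_DSS, and at 23.9, 31.3, 39.99 and 31.8 in cKO and 53.1, 74.4, 83.8 and 65.8 in cKO_DSS. Its means were 2.17-fold and 2.18-fold higher with DSS (limma adjusted p = 0.0012 and 0.00126), without overlap in either genotype. Oas3 went from 16.4 ± 7.22 to 37.3 ± 2.23 FPKM in WT. The near-identical pair Oas1a and Oas1g shared 57.6% and 45.2% of their 50-base windows, so their split is uncertain; their log2 differences in WT were 0.79 and 0.56, the lowest of the OAS genes.

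The RNA sensors detect foreign or double-stranded RNA in the cytoplasm. All 5 rose with DSS in WT and 3 of 5 in cKO. Ddx58 (ENSMUSG00000040296, chr4:40203773-40239828, minus strand) encodes RIG-I, which binds RNA with a triphosphate end. It was at 9.73, 7.88, 6.63 and 3.96 FPKM in WT and 17.8, 16.4, 15.5 and 16.8 in WT_DSS, and at 8.30, 8.39, 12.4 and 9.83 in cKO and 15.6, 27.4, 16.6 and 15.6 in cKO_DSS. Both pairs of groups were apart, with cKO_DSS 2 far above the other cKO_DSS libraries, and the log2 differences were 1.18 (SE 0.21, adjusted p = 0.00216) and 0.86 (adjusted p = 0.0147) by limma.

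Dhx58 (ENSMUSG00000017830, chr11:100694884-100704271, minus strand), the gene for LGP2, a regulator of RIG-I-like signalling, was at 18.3, 16.5, 11.2 and 9.09 FPKM in WT and 26.9, 23.0, 26.1 and 36.0 in WT_DSS, and at 13.5, 15.3, 17.8 and 15.0 in cKO and 27.5, 26.2, 30.3 and 24.2 in cKO_DSS. Its mean was 2.03-fold higher with DSS in WT and 1.76-fold in cKO (limma adjusted p = 0.00215 and 0.0102), with no overlap. Ifih1 (MDA5, a sensor of long double-stranded RNA) and Eif2ak2 (PKR, a kinase that halts translation) were not called in cKO, at log2 differences of 0.58 and 0.49 (adjusted p = 0.0634 and 0.0735 by limma). In WT those differences were 1.02 and 0.89 and both were called. Adar, the RNA-editing enzyme with an interferon-inducible isoform, had the smallest called rise in WT, 0.47.

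The restriction factors block single steps of viral growth. In both genotypes 6 of 7 rose with DSS, and Isg20 was the exception. Mx2 (ENSMUSG00000023341, chr16:97535308-97560900, plus strand), a dynamin-like GTPase, was at 2.65, 2.16, 1.81 and 1.46 FPKM in WT and 10.1, 8.55, 8.52 and 12.8 in WT_DSS, and at 2.08, 2.97, 4.37 and 2.69 in cKO and 9.72, 13.5, 9.49 and 9.10 in cKO_DSS. The treated libraries were all above the untreated ones, 4.94-fold by the mean in WT and 3.45-fold in cKO (limma adjusted p = 2.16e-05 and 0.00015). The deposited annotation lists both Mx1 and Mx2 as polymorphic pseudogenes, and Mx1 rose from 6.93 ± 2.11 to 33.6 ± 5.55 FPKM in WT.

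Cmpk2 (ENSMUSG00000020638, chr12:26469204-26479837, plus strand), a mitochondrial nucleotide kinase gene next to Rsad2, was at 10.4, 9.79, 7.84 and 4.79 FPKM in WT and 32.8, 33.7, 26.6 and 45.4 in WT_DSS, and at 8.24, 9.95, 14.4 and 9.92 in cKO and 25.8, 35.8, 26.3 and 25.9 in cKO_DSS. The log2 differences were 1.97 (SE 0.21, adjusted p = 5.71e-05) in WT and 1.35 (adjusted p = 0.000962) in cKO by limma, again without overlap. Rsad2, which encodes viperin, an enzyme that makes a chain-terminating nucleotide, rose from 6.11 ± 2.41 to 32.2 ± 6.16 FPKM in WT and from 9.62 ± 3.45 to 29.1 ± 7.10 in cKO. Bst2 (tetherin, which holds budding virions at the cell surface) and the dNTP hydrolase gene Samhd1 had log2 differences of 0.69 and 0.94 in WT; the Bst2 call in WT (adjusted p = 0.0457 by limma) was lost in 15 of 30 alternative fits.

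Isg20 (ENSMUSG00000039236, chr7:78913424-78920396, plus strand), an RNA exonuclease gene, went against the rest of the set in WT. It was at 7.70, 6.30, 8.27 and 9.83 FPKM in WT and 6.55, 4.68, 6.81 and 4.70 in WT_DSS, and at 5.81, 5.60, 4.90 and 6.65 in cKO and 6.56, 5.19, 7.16 and 7.73 in cKO_DSS. The ranges of all 4 groups overlapped, and WT 4 was the highest library. It fell by 0.44 on the log2 scale in WT (SE 0.15, adjusted p = 0.0367 by limma), a call lost in 11 of 30 alternative fits, and its log2 difference in cKO was 0.18 (adjusted p = 0.459).

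In the ISG15 and ADP-ribosylation group, 6 of 7 rose with DSS in WT and 5 of 7 in cKO. Isg15, the ubiquitin-like modifier that gives the system its name, was not called in either genotype, chosen for description here after its values were seen. It was at 132, 95.2, 81.3 and 53.0 FPKM in WT and 129, 124, 209 and 201 in WT_DSS, and at 56.9, 84.7, 74.2 and 66.8 in cKO and 154, 67.7, 234 and 158 in cKO_DSS. The WT groups overlapped through WT 1 and the cKO groups through cKO_DSS 2, and the log2 differences were 0.90 (SE 0.33, adjusted p = 0.0528) and 0.99 (adjusted p = 0.0561) by limma. Of 30 alternative fits, 10 called it in WT and 8 in cKO. Usp18, the protease that removes ISG15 and also dampens the type I receptor, rose from 9.51 ± 4.01 to 41.3 ± 8.81 FPKM in WT and from 12.2 ± 3.28 to 38.0 ± 8.12 in cKO.

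Dtx3l (ENSMUSG00000049502, chr16:35926511-35939151, minus strand), a ubiquitin ligase gene, was at 21.8, 19.9, 14.5 and 13.2 FPKM in WT and 47.6, 46.1, 44.0 and 46.0 in WT_DSS, and at 18.3, 19.5, 26.6 and 21.0 in cKO and 40.9, 57.7, 41.5 and 36.1 in cKO_DSS. Treated and untreated libraries did not overlap in either genotype (log2 differences 1.38 and 1.0, limma adjusted p = 0.000124 and 0.00114). The gene overlaps its partner gene Parp9 on the opposite strand, and the counting is not stated to use strand, so reads of the pair may be shared. Parp14 (ENSMUSG00000034422, chr16:35832874-35871544, minus strand), an ADP-ribosyltransferase gene, was at 21.4, 18.9, 16.5 and 11.2 FPKM in WT and 41.3, 38.7, 38.2 and 40.8 in WT_DSS, and at 18.9, 24.4, 26.1 and 21.4 in cKO and 35.5, 45.3, 40.8 and 36.2 in cKO_DSS. It showed the same separation, with log2 differences of 1.22 and 0.77 (limma adjusted p = 0.00021 and 0.00432). Trim25, the ligase that promotes RIG-I signalling, rose from 41.2 ± 7.42 to 71.2 ± 2.32 FPKM in WT, and Herc6, the mouse ligase for ISG15, was called in WT (log2 difference 1.195) but not in cKO (0.68, adjusted p = 0.0957 by limma).

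Of the TRIM30 and Schlafen genes, 3 of 4 tested rose with DSS in WT and all 4 in cKO. Slfn5 (ENSMUSG00000054404, chr11:82951349-82964840, plus strand) was at 2.16, 2.33, 1.04 and 0.508 FPKM in WT and 9.53, 9.04, 8.62 and 9.90 in WT_DSS, and at 1.60, 2.01, 4.40 and 2.57 in cKO and 8.79, 16.4, 11.8 and 8.61 in cKO_DSS. The means were 6.14-fold and 4.31-fold higher with DSS (limma adjusted p = 0.000193 and 0.000581), with no overlap. Trim30a (ENSMUSG00000030921, chr7:104409025-104465193, minus strand), a TRIM family member known to restrain NF-kappaB signalling, was at 14.3, 13.4, 7.57 and 4.41 FPKM in WT and 37.8, 36.6, 32.9 and 37.2 in WT_DSS, and at 12.02, 13.8, 18.4 and 12.02 in cKO and 43.4, 76.5, 41.2 and 35.9 in cKO_DSS. Both genotypes separated by treatment (log2 differences 1.88 and 1.69, limma adjusted p = 0.000783 and 0.00146), and cKO_DSS 2 was again the highest. Trim30d had log2 differences of 0.98 in WT and 1.92 in cKO.

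Slfn2 (ENSMUSG00000072620, chr11:83065112-83070678, plus strand), a gene best known for keeping T cells and monocytes quiescent, was low and followed another pattern. It was at 0.402, 1.30, 1.17 and 0.845 FPKM in WT, 0.433, 1.30, 1.19 and 1.08 in cKO and 0.78, 1.34, 2.54 and 1.16 in WT_DSS, and at 2.27, 6.96, 9.83 and 6.98 in cKO_DSS. The first 3 groups overlapped, and 3 of the 4 cKO_DSS libraries lay far above all others. It was not called with DSS in WT (log2 difference 0.32, SE 0.31, adjusted p = 0.454) and rose in cKO (1.81, adjusted p = 0.00165), both by limma, on 10 to 258 reads per library.

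The other induced proteins rose in 5 of 6 cases in WT and in all 6 in cKO. Xaf1 (ENSMUSG00000040483, chr11:72301629-72313733, plus strand), the gene for a binding partner of the apoptosis inhibitor XIAP, was at 9.24, 7.60, 6.96 and 4.74 FPKM in WT and 15.9, 17.6, 17.2 and 15.9 in WT_DSS, and at 7.69, 9.66, 13.2 and 9.79 in cKO and 16.4, 22.9, 15.9 and 14.3 in cKO_DSS. Neither genotype overlapped between treatments (log2 differences 1.15 and 0.73, limma adjusted p = 0.000896 and 0.0128). Rtp4 (ENSMUSG00000033355, chr16:23520291-23614222, plus strand), a receptor transporter protein, was at 25.7, 20.0, 18.3 and 15.1 FPKM in WT and 51.4, 51.7, 43.2 and 55.7 in WT_DSS, and at 18.4, 24.2, 39.2 and 25.4 in cKO and 42.9, 62.8, 41.5 and 29.8 in cKO_DSS. Here the WT groups were apart while the cKO groups overlapped through cKO 3, and the log2 differences were 1.33 (adjusted p = 0.00157) and 0.70 (adjusted p = 0.0482) by limma, the latter lost in 18 of 30 alternative fits. Ifi44 rose from 8.01 ± 5.10 to 31.9 ± 4.61 FPKM, Ifi27l2a from 35.01 ± 8.91 to 93.2 ± 20.52 and the secreted galectin-binding protein gene Lgals3bp from 128 ± 40.4 to 230.1 ± 23.2 in WT (SD, n = 4). Ifi35 was the 1 gene of this group not called in WT (log2 difference 0.29, adjusted p = 0.163 by limma).

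**Figure D2:**
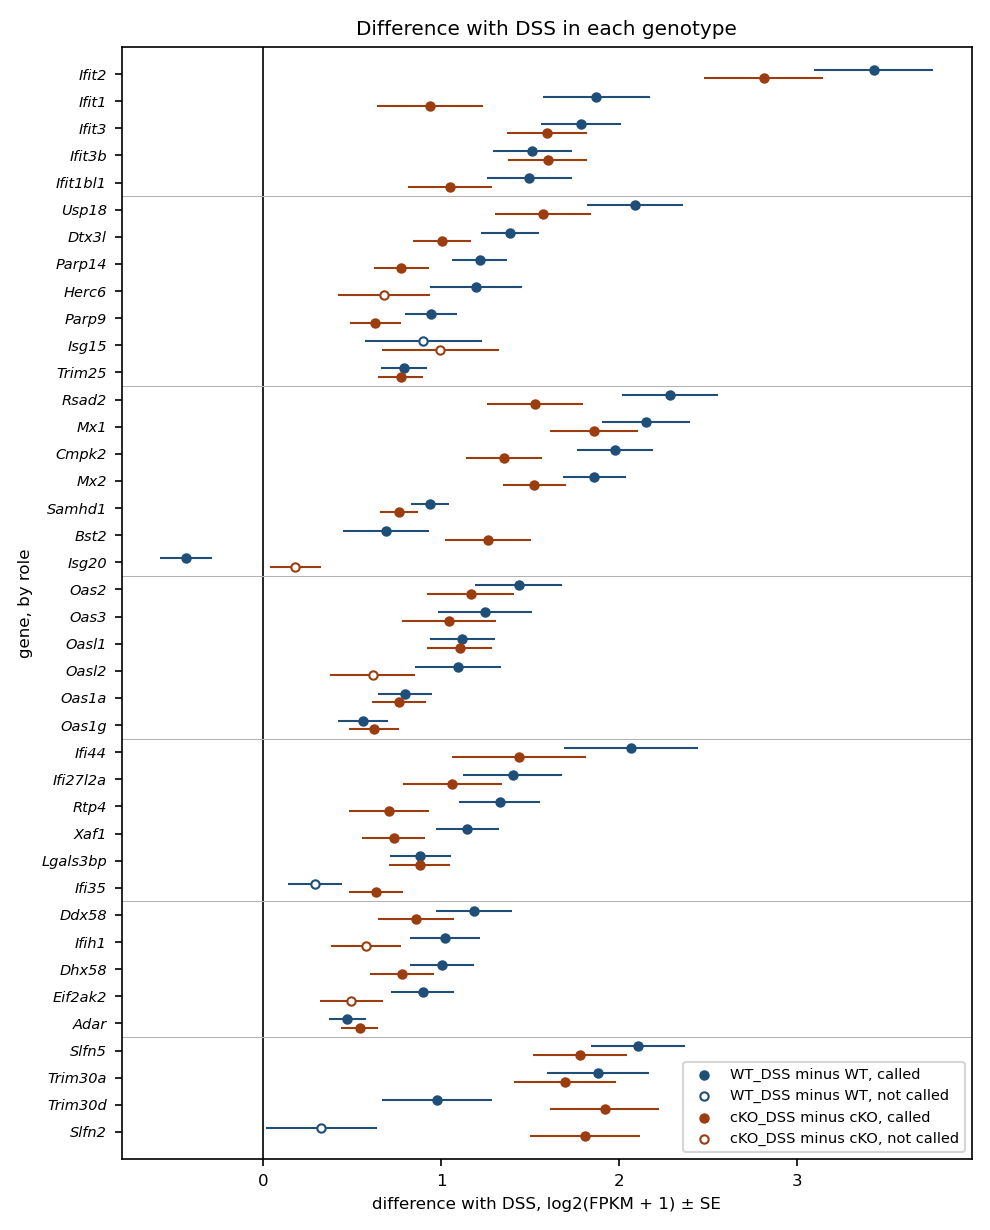
Each row is 1 of the 40 tested genes, grouped by role; the horizontal axis gives the difference with DSS in log2(FPKM + 1), and bars are the SE of the limma fit. Blue points are WT_DSS minus WT and brown points cKO_DSS minus cKO, filled where the adjusted p was under 0.05. Nearly all points lie right of 0, Ifit2 farthest at 3.43 in WT, and Isg20 in WT is the 1 point to the left.

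Promoter sequences are shown because these genes moved together and are known as a class by a short promoter element. RefSeq windows of 250 bases before to 50 after an annotated start (GRCm38.p6) were at hand for 32 of the 41 genes. The core of the interferon-stimulated response element, written as GAAANNGAAA and searched on both strands, was found in the windows of 17 of those 32 genes (53.1%) and in those of 3.99% of all 27025 genes in the table. The core of the gamma-activated site, TTCNNNGAA, which reads the same on both strands, was found for 8 of the 32 (25%) and 9.55% of all genes. A match of letters is a description and not a binding site, and the sites of the 2 motifs overlapped in Bst2. Ifit1, Ifit3, Isg15 and Oas1a, chosen after the search as examples from the IFIT, ISG15 and OAS groups, had 2 or 3 matches each between 156 and 5 bases before the start. Their stretches follow with 12 bases on each side, 5′ to 3′ on the strand of the gene, with matches to the response element core in capitals (TTTCNNTTTC is its reverse complement).
Ifit1, chr19:34640773-34640825, plus strand: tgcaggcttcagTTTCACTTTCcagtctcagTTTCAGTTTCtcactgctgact
Ifit3, chr19:34583361-34583428, plus strand: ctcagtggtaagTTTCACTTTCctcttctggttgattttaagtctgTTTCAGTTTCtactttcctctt
Isg15, chr4:156200863-156200908, minus strand: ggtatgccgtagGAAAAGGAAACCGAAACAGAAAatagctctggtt
Oas1a, chr5:120907518-120907557, minus strand: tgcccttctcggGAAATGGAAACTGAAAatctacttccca

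Of the 4 genes with the smallest p for DSS in WT among those given with every library and a RefSeq window, 1 held the element core in it and 3 did not. The windows follow in the same notation, so that the Slfn5 match can be seen beside windows in which these letters do not occur. Ifit2 had 2 windows, of which that at its start in the deposited table is shown.
Ifit2, chr19:34550444-34550743, plus strand: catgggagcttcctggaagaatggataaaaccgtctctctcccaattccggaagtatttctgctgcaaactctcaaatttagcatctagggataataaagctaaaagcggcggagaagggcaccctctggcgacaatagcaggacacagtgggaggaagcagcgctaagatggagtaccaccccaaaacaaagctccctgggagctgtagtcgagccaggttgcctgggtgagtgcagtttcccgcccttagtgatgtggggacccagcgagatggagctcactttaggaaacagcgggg
Cmpk2, chr12:26468965-26469264, plus strand: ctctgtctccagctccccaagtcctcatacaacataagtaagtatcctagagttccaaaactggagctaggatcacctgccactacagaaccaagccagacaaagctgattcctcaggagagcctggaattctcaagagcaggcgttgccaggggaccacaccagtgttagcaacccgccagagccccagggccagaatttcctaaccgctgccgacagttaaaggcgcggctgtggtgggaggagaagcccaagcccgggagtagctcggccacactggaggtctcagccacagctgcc
Dtx3l, chr16:35938978-35939277, minus strand: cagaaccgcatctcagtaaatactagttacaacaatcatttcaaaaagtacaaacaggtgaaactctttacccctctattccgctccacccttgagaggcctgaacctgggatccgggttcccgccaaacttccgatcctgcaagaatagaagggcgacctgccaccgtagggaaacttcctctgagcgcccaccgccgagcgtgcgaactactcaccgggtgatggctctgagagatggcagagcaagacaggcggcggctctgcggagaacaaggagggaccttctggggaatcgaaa
Slfn5, chr11:82951852-82952151, plus strand: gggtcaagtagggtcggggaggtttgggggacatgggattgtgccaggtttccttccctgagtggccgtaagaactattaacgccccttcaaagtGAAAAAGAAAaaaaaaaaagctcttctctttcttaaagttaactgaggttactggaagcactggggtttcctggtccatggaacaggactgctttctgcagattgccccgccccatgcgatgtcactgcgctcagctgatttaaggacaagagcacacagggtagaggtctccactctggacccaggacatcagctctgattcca

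The single Slfn5 match lies between 155 and 146 bases before the annotated start, and that start is 753 bases downstream of the gene's start in the deposited table. The 16 tested genes with the element core had a median log2 difference with DSS of 1.21 in WT and 1.04 in cKO, and the 15 tested genes with a window but no match had 1.09 and 0.77. The largest difference of the set, that of Ifit2, belonged to a gene without a match in its 2 windows. Sequence outside the windows was not searched.

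In WT, cKO and cKO_DSS, 1 library of each group was the highest in most of the 40 genes. In WT without treatment, WT 4 was the lowest library in 36 of the 40 genes (in 32.7% of all genes tested) and WT 1 the highest in 33 (28.9%). The 4 WT libraries had median deviations from the group mean of 0.42, 0.19, -0.08 and -0.53 over the 40 genes on the log2 scale, in the order of their numbers. In cKO, cKO 1 was the lowest in 37 (24.4%) and cKO 3 the highest in 34 (30.8%), and in cKO_DSS, cKO_DSS 2 was the highest in 31 (33.8%). WT_DSS had no such library: its libraries were the highest in 7, 3, 10 and 20 genes and the lowest in 4, 12, 20 and 4, in the order of their numbers. After the GC correction, WT 4 was the lowest in 37 and cKO 3 the highest in 37. The median SD over the 40 genes was 0.416 in WT, 0.292 in cKO, 0.147 in WT_DSS and 0.281 in cKO_DSS, against 0.179, 0.136, 0.161 and 0.209 over all genes tested. The untreated and the cKO_DSS libraries thus spread more in these genes than in the typical gene, and the WT_DSS libraries slightly less. Where that variation comes from was not tested.

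**Figure D3:**
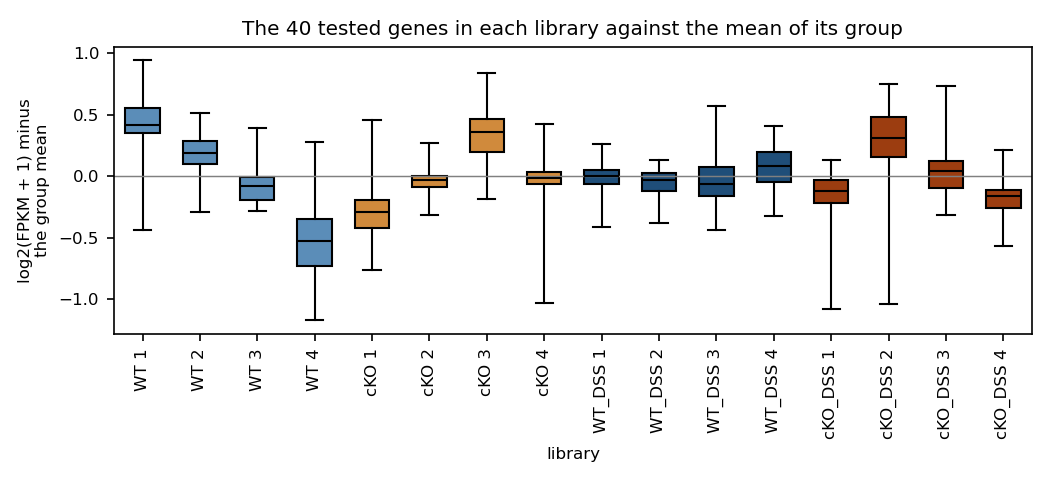
Each box shows, for 1 library, the log2(FPKM + 1) of the 40 tested genes minus the mean of the library's group; the line is the median, the box the middle of the genes and the whiskers the full range. WT 1 and WT 4 have medians of 0.42 and -0.53, cKO 1 and cKO 3 of -0.29 and 0.36, and the 4 WT_DSS boxes sit near 0.

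Taking each gene's deviations from its group means over the 16 libraries and correlating them with the mean of the other 39 genes, 31 of the 40 had a Pearson r over 0.8, with a median of 0.89. These points share libraries and depth, so the values are a description. 6 genes had an r under 0.5. They were Isg20 at -0.62, Slfn2 at 0.14, Ifi35 at 0.27, Isg15 at 0.27, Trim30d at 0.30 and Samhd1 at 0.42. Of the 4 genes not called higher with DSS in WT, all are among these 6. The 40 genes had a median GC content of 48.2% against 49.5% of all genes tested, a median length of 3856 against 3640 bases, and a median of their mean levels of 26.5 against 5.74 FPKM.

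Between untreated genotypes, 0 of the 40 genes were called by limma, where 0.0905% of all genes were called in either direction. 36 of the 40 were higher in cKO than in WT, with a median difference of 0.35 (0.01 over all genes, of which 51.3% were higher). An unadjusted limma p under 0.05 was found for 12 of the 40 and for 2404 of all 13255 genes. The median was 0.16 without WT 4 and 0.20 without cKO 3. The correlation with GC content also differed between these groups, at 0.19 to 0.50 in WT and -0.226 to 0.005 in cKO. Xist was at 33.2 to 64.9 FPKM in WT and 44.7 to 105 in cKO. The part of these measures in the genotype differences was not tested beyond the fits given here. Oas2 had the smallest p. Its values, given above, were 2.09-fold higher in cKO by the mean (log2 difference 1.07, SE 0.24, limma adjusted p = 0.111), and it was the 1 gene of the 40 whose cKO libraries all lay above all WT libraries, as did those of 7.85% of all genes. Ifi27l2a was at 44.9, 36.6, 35.3 and 23.3 FPKM in WT and 42.4, 58.0, 115 and 97.8 in cKO, a log2 difference of 1.07 (adjusted p = 0.124 by limma), with cKO 1 inside the WT range.

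After DSS, Slfn2 alone was called between genotypes among the 40, higher in cKO_DSS (2.03% of all genes were called higher and 1.67% lower). Its mean was 6.51 ± 3.13 FPKM in cKO_DSS and 1.45 ± 0.759 in WT_DSS (SD, n = 4), a log2 difference of 1.54 (SE 0.31, adjusted p = 0.0177 by limma), and cKO_DSS 1 lay below WT_DSS 3. The call was lost without WT_DSS 1, WT_DSS 2, cKO_DSS 3 or cKO_DSS 4, with adjusted p from 0.000591 to 0.206 over 29 alternative fits. 8 markers of T cells and intraepithelial lymphocytes summed to 22.7 to 33.1 FPKM in cKO_DSS and 19.8 to 24.7 in WT_DSS. Limma called 0 of the 6 tested ones between these groups. The 4 markers of all leukocytes summed to 8.66 to 10.35 FPKM in cKO_DSS and 6.985 to 10.86 in WT_DSS. The 7 macrophage markers summed to 5.52 to 10.2 and 5.70 to 9.17. The part of any of these markers in the Slfn2 difference was not tested. Over the 40 genes the median difference between genotypes after DSS was 0.08, or -0.03 without cKO_DSS 2. In 4 of them, among which are Oas2 and Ifit3b, every cKO_DSS library lay above every WT_DSS library (5.12% of all genes). Oas2 had a log2 difference of 0.80 (adjusted p = 0.0786 by limma).

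The interaction, which tests whether the difference with DSS depended on genotype, was called for 0 of the 40 genes by limma (0.151% of all genes). Its unadjusted p was under 0.05 for 4 of the 40 and for 3074 of all 13255 genes. The interaction was negative, meaning a lower log2 difference with DSS in cKO, for 31 of the 40 and 6793 of all 13255 genes. Its median over the 40 was -0.30 (-0.01 over all genes), or -0.13 without WT 4 and -0.15 without cKO 3. The genotype difference without treatment enters this value, so the 2 are not separate evidence. Slfn2 had the smallest p (1.48 on the log2 scale, SE 0.44, adjusted p = 0.103), and Ifit1 had the most negative value (-0.93, SE 0.42, adjusted p = 0.203). A threshold missed does not show that the genotypes responded alike.

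**Figure D4:**
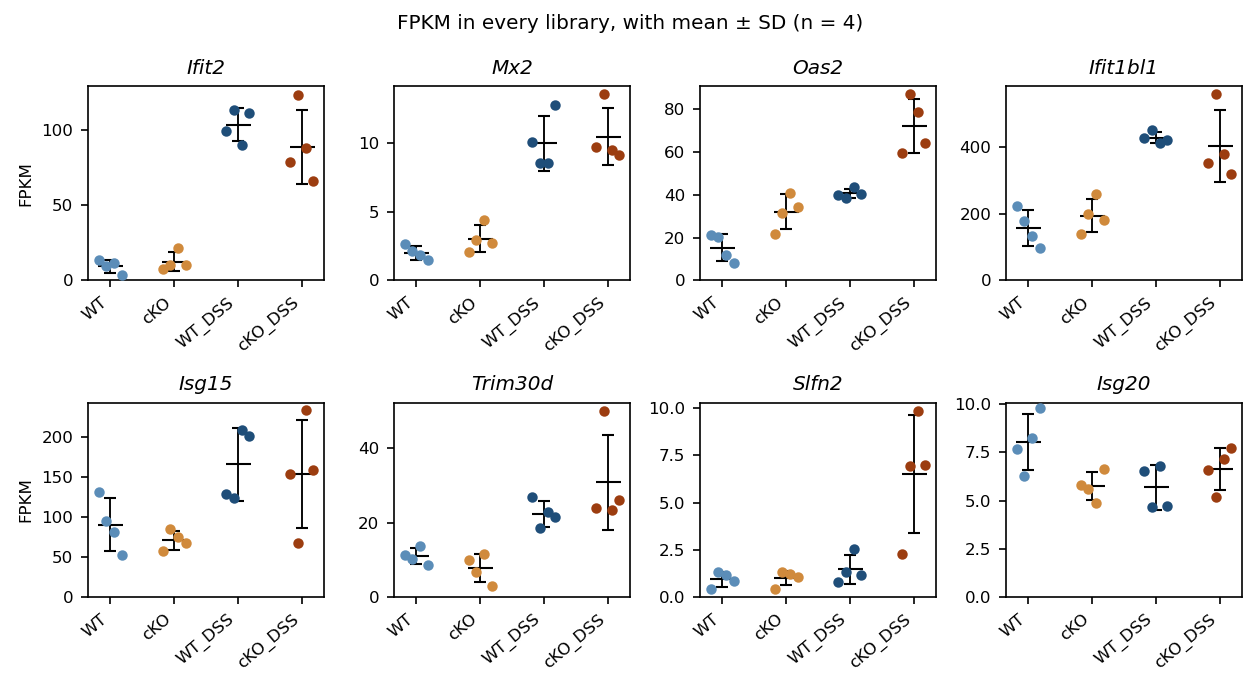
Each panel shows 1 gene, with the FPKM of each library as points on a linear axis from 0 and the mean ± SD of each group in black (n = 4). Ifit2, Mx2, Oas2 and Ifit1bl1 separate by treatment; Isg15 and Trim30d spread widely after DSS in cKO; Slfn2 is high in 3 of 4 cKO_DSS libraries; Isg20 overlaps between all groups.

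The genes of the pathway around the set were taken from lists chosen by role. Their counts of calls stand beside a background of 15% of all genes tested called higher and 13.5% lower with DSS in WT, and 8.07% and 6.64% in cKO. Among 11 interferon ligand genes, the type III genes Ifnl2 and Ifnl3 were found in DSS libraries and in no untreated one. Ifnl2 had 0 reads in all 8 untreated libraries, 8, 7, 17 and 25 in WT_DSS and 9, 6, 7 and 2 in cKO_DSS. Ifnl3 had 0 reads in the untreated libraries, 14, 10, 12 and 7 in WT_DSS and 4, 0, 16 and 2 in cKO_DSS. Every treated library thus held reads of at least 1 of the pair. Against a floor of 3 reads over an untreated group, Ifnl2 was at least 20.2-fold higher in WT and 7.40-fold in cKO, and Ifnl3 at least 15.2-fold and 6.78-fold. The pair was singled out for these reads, so they are given as a description with no test. The pair shared 31.7% and 38.8% of their 50-base windows, so reads may be split between them, and the floors cover counting error only.

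**Figure D5:**
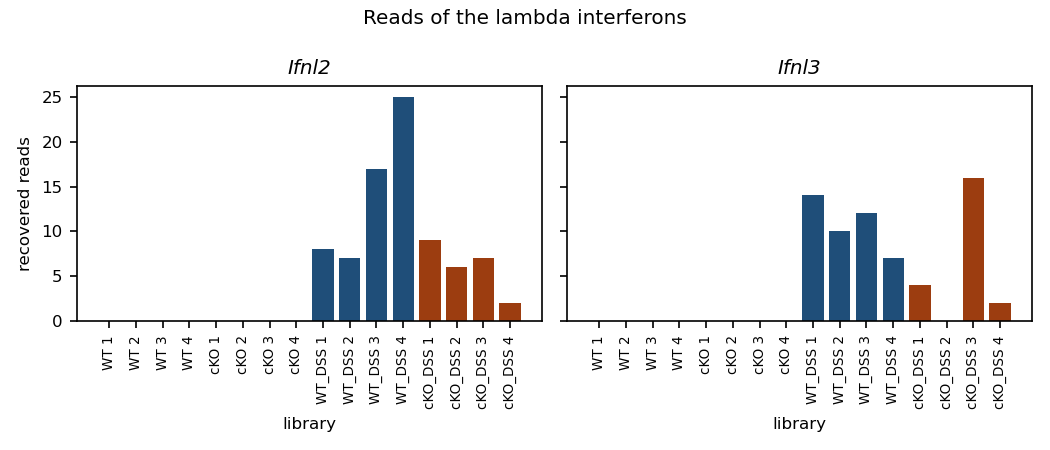
Bars give the recovered reads of Ifnl2 (left) and Ifnl3 (right) in each library, on a shared linear axis. The 8 untreated libraries are at 0 for both, WT_DSS libraries hold 7 to 25 reads of Ifnl2, and cKO_DSS 2 holds 6 of Ifnl2 and 0 of Ifnl3.

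Among the treated libraries, WT_DSS 4, with 25 reads of Ifnl2 and 7 of Ifnl3, was the highest of its group in 20 of the 40 genes, and WT_DSS 3, with 17 and 12, the lowest in 20. cKO_DSS 2, highest in 31 of the 40, held 6 reads of Ifnl2 and 0 of Ifnl3, cKO_DSS 3, highest in 8, held 7 and 16, and cKO_DSS 4, lowest in 21, held 2 and 2. No relation between ligand reads and the 40 genes was tested. Of the type I ligands, Ifnb1 had 4 reads in all, in WT_DSS 2 and WT_DSS 4, Ifna13 had 1, and Ifna1, Ifna2, Ifna4, Ifna5 and Ifne had 0 in all 16 libraries. Ifng, the type II interferon of lymphocytes, had 7 reads in 3 libraries, and Ifnk had 1, 0, 2 and 5 in WT, 2, 1, 3 and 3 in cKO, 1, 5, 0 and 0 in WT_DSS and 0 in all 4 cKO_DSS libraries. These counts were not tested.

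Of 5 tested receptor genes, 2 rose with DSS in each genotype. Il10rb, the shared chain of the type III receptor, rose in both, by 0.29 in WT and 0.33 in cKO on the log2 scale (limma adjusted p = 0.0117 and 0.00865), and Ifnar1, a chain of the type I receptor, rose in WT (0.28, adjusted p = 0.0145). Ifngr2, a chain of the interferon gamma receptor, rose in cKO (0.35, adjusted p = 0.00815). The specific type III chain Ifnlr1 was at 4.18 ± 0.479 FPKM in WT and 4.18 ± 0.415 in WT_DSS, without a call.

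Of the 12 JAK, STAT and IRF genes, 7 rose and 1 fell with DSS in WT, and 6 rose in cKO. Irf1, an interferon gamma-induced transcription factor, rose by 0.54 in WT and 0.67 in cKO on the log2 scale, and Stat3, which carries IL-6 and IL-22 signals, by 0.25 and 0.38. The gene that fell in WT was Irf3, which turns on Ifnb1 after nucleic acid sensing and was named after its values were seen (log2 difference -0.52, adjusted p = 0.0355 by limma).

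Of 5 brakes on the pathway, 1 rose in WT, near the background of 15%, and 3 in cKO. Socs1, an inhibitor of JAK kinases, rose in both, by 0.76 and 0.93 (limma adjusted p = 0.00377 and 0.00117). Socs3, an inhibitor of STAT3 signalling, was at 5.38, 4.50, 4.83 and 6.14 FPKM in WT_DSS and 8.94, 9.34, 16.5 and 9.76 in cKO_DSS. Those groups did not overlap (log2 difference 0.93, adjusted p = 0.0193), and its interaction was 1.33 (adjusted p = 0.0561 by limma). Socs2 rose in cKO (0.39, adjusted p = 0.00817).

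Of 9 tested sensing and adaptor genes, 4 rose and 2 fell in WT, and 3 rose in cKO. The 3 were Tlr3, an endosomal sensor of double-stranded RNA, with log2 differences of 1.15 and 0.68, Myd88, the adaptor of most Toll-like receptors, with 0.63 and 0.39, and Zbp1, a sensor of Z-form nucleic acid, with 0.78 and 0.92 (limma adjusted p from 0.000689 to 0.0213). All 8 interferon gamma-inducible GTPase genes, which act against intracellular pathogens, rose in both genotypes, with median differences of 2.08 in WT and 1.33 in cKO. Iigp1 was at 2.22, 2.25, 1.83 and 0.621 FPKM in WT and 46.1, 42.2, 35.4 and 44.8 in WT_DSS, and at 1.14, 2.71, 3.52 and 3.85 in cKO and 27.8, 39.5, 27.7 and 21.9 in cKO_DSS. That is 24.4-fold and 10.4-fold by the mean, larger than for any of the 40 antiviral genes in WT. Igtp and Tgtp1 rose by 2.33 and 2.78 in WT and by 1.60 and 1.86 in cKO on the log2 scale. Tgtp1 reached no more than 0.512 FPKM in WT and passed the filter through libraries in which it was high. Its rise, also counted among the 8, is thus a description. The interaction was negative for all 8 and for 6793 of all 13255 genes, with medians of -0.84 and -0.01. Of the 8, 0 passed limma's test (lowest adjusted p 0.0771). 7 had an unadjusted p under 0.05, as did 3074 of all 13255 genes.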

How the data were processed

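Total RNA of colonic epithelial cells was sequenced in 16 libraries, and groups and numbers follow the labels. Per the labels' protocols, the reads were filtered for quality and for adapters and N bases. The submitters' processing notes name the mm10 build, DESeq2 1.20.0 and featureCounts 1.5.0-p3. Which aligner and annotation were used, and whether strand was, is not given in the sources used here. The deposited values analysed here are the authors' FPKM per gene. FPKM times gene length came out in whole steps (tolerance 0.05), which gave back the reads; no libraries of a group agreed within sampling noise.

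Values were tested as log2(FPKM + 1), which understates changes of low genes, for genes reaching 1 FPKM in 4 or more libraries. One limma 3.58.1 fit (R 4.3.3, trended eBayes, 4 group means, all 16 libraries) gave 5 two-sided comparisons, adjusted by Benjamini-Hochberg over all 13255 genes. A gene was called at an adjusted p under 0.05. Genes were given with every library if they had 1 of the 2 smallest p for DSS in WT of their role, the smallest p or a call between genotypes or in the interaction, the largest or smallest DSS difference in WT, or the highest mean. Pathway genes were the called ones with the 3 smallest p of each list, of which 1 is not reported here. Tmem173 and Mb21d1 were found as Sting1 and Cgas through RefSeq synonyms. The genes, lists and tests were chosen with earlier results of these data known. Depth of 13911823 to 16414914 reads per library puts 1 FPKM at few reads for short genes. Alternatives were other pseudocounts, filters and scalings, quality weights, a replicate block, a GC correction (loess, span 0.5), a Y-linked covariate, voom on recovered reads, the 8 libraries compared alone, and leaving out libraries.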

Additional observations from a re-analysis of the deposited data

Results flagged for a closer look

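In 7 of 160 groups of 4 libraries (40 genes in 4 groups), 1 library lay far from the other 3, with a gap over range above Dixon's critical value; chance gives such gaps in about 1 in 20 groups. In cKO_DSS, 4 of the 7 were high values of cKO_DSS 2: Mx2 at 13.54 FPKM, Ddx58 at 27.38, Trim30d at 50.01 and Cmpk2 at 35.75. In WT_DSS, WT_DSS 3 was high for Ifi27l2a (123.9 FPKM) and Ifi35 (27.2 FPKM), and WT_DSS 2 was low for Oas1a (114.7 FPKM). Without cKO_DSS 2, 32 of the 40 genes were called with DSS in cKO, against 34 with all libraries. Over all genes tested, 13.6% were called without that library and 14.7% with all libraries.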

How the results depend on the processing

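Over 30 alternatives, the number of genes rising with DSS stayed at 32 or more of 40 in WT and at 29 or more in cKO, except 16 in cKO with the Y-linked covariate, where calls over all genes fell from 1950 to 299. The share of all genes tested that was called higher ranged over these fits from 3.86% to 22.4% in WT and from 1.58% to 12.3% in cKO. Leaving out 1 library gave 34 to 37 in WT, where 9.15% to 17% of all genes tested were called higher. In cKO it gave 29 to 39, where 5.56% to 8.75% of all genes tested were called higher. The calls lost most often were those of Bst2, Isg20 and Trim30d in WT and of Ifit1 and Rtp4 in cKO, lost in 15, 11, 9, 18 and 18 alternatives. Calls were gained most often for Isg15 in WT, in 10, and in cKO for Isg15 in 8, Ifih1 in 10 and Eif2ak2 in 7.

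The count between genotypes after DSS, 1 in the fit reported, was 0 with a filter of 5 FPKM (Slfn2 then not tested). It was 0 without cKO_DSS 3 and 4, 0 without WT 4 and WT_DSS 2, and 0 to 2 leaving out 1 library. Of all genes, 33, 117 and 78 to 886 were called in those fits, in the same order. Voom gave 2 (Oas2 gained, 521 of all genes called) and quality weights 6 (3485 of all genes called). The 8 libraries alone gave 1, Oas2 in place of Slfn2, where 96 of all genes were called. Without treatment, quality weights gave 1 (Oas2, with 267 of all genes called). The interaction gave 3 with quality weights (Ifi35, Isg20 and Slfn2, with 3728 of all genes called) and 0 to 1 leaving out 1 library. Slfn2 was called without cKO_DSS 1 and Isg20 without cKO_DSS 2. In those fits 393 and 1240 of all genes were called, against 20 with all libraries. The cause of these changes was not tested. No alternative reversed the direction of a called gene.

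Deviations from the group means were correlated between samples of different groups, at -0.20 to 0.30 for the same replicate number. For different numbers the correlations were -0.25 to 0.28. Weak correlations over all genes cannot exclude that the numbers mark pairs. The replicate block called 36 genes higher in WT, 33 in cKO and 0, 1 and 0 in the other comparisons. Over all genes it called 15.1% and 7.88% higher with DSS. With the GC correction as well, it called 37 in WT and 37 in cKO, where 20% and 18.8% of all genes were called. Depth limits the ligand genes and Slfn2, which rest on few reads.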
